A study of Mus musculus with 7 samples.

Results

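Polyamine metabolism genes were followed in overloaded and sham-operated plantaris muscle of Pax7-DTA mice (parental strains Pax7-CreER and Rosa26-DTA, aged 4 months). The set was named by symbol as 9 genes: Odc1, Amd1, Srm and Sms of synthesis, Oaz1, Oaz2 and Azin1 of the antizyme system, and Sat1 and Smox of catabolism. A probe set was used when the platform annotation gave one of these symbols and no other. This left 7 of the 9 genes, with 14 probe sets, among 18193 genes measured in all. Sms appears there on 3 probe sets that also carry its pseudogene Sms-ps, and Amd1 on 0, so both were not analysed here. A further probe set shares Oaz1 with another gene and was left out too. The probe set with the highest mean over the arrays leads each gene, and the others are given beside it.

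The study has 7 arrays in 4 groups: tamoxifen overload (n = 3; 2 males as replicates 1 and 2, 1 female as replicate 3), tamoxifen sham (n = 1, male), vehicle overload (n = 2; a female as replicate 1, a male as replicate 2) and vehicle sham (n = 1, male). The labels give the same strain for all arrays, so the vehicle groups are told from the tamoxifen groups by the drug and not by genotype. Tamoxifen activates the Pax7-driven recombinase, which switches on diphtheria toxin A where Pax7 is active. Pax7 is the defining transcription factor of satellite cells, the stem cells of muscle. Overload lasted 1 week and followed synergist ablation, an operation that takes away the neighbouring calf muscles and leaves their load to the plantaris. The titles read as single mice while the design text names pooled right and left muscles of 11 animals, so the number of animals behind an array is uncertain. Where arrays share animals or pools, the spread between them may be partly technical.

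Polyamines (putrescine, spermidine and spermine) are small cations that bind nucleic acids and are needed for growth and translation. Ornithine decarboxylase makes putrescine, and spermidine synthase and spermine synthase extend it with groups donated by decarboxylated S-adenosylmethionine. Antizymes send ornithine decarboxylase to the proteasome, antizyme inhibitor takes antizymes away from it, and acetylation or oxidation returns the larger polyamines to smaller ones. In skeletal muscle the pathway is known as androgen-responsive, and spermine oxidase is known to be low in wasting mouse muscle.

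The 250 bases before the annotated start (RefSeq, build GRCm38.p6) are shown for the gene that fell most, for the acetyltransferase that rose and for the enzyme at the entry of synthesis. RefSeq promoters matched 5 of the 7 genes; Srm and Azin1 are named only. Capitals mark the GC box GGGCGG and the antioxidant element core TGACNNNGC on either strand, and none of these matches overlap.
Smox, chr2:131491612-131491861, plus strand: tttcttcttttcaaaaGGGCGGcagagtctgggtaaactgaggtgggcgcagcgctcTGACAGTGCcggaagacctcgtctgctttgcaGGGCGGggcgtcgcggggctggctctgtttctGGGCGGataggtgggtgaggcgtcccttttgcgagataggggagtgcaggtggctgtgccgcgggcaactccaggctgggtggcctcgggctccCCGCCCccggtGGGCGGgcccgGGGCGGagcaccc
Sat1, chrX:155216450-155216699, minus strand: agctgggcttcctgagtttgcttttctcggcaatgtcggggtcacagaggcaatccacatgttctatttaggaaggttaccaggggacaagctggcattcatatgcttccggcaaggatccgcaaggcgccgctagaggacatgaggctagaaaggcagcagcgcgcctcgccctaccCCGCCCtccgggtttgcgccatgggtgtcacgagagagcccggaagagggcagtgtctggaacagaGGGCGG
Odc1, chr12:17544623-17544872, plus strand: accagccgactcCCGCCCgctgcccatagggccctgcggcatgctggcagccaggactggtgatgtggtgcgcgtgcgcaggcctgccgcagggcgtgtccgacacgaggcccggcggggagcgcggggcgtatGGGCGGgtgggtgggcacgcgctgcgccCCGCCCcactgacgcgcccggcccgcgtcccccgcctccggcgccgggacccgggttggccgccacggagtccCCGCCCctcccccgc
The Smox window held 6 GC boxes, the Odc1 window 4 and the Sat1 window 2. Of 32851 windows of the same length in the mouse set, 32.7% held at least 1 GC box. The antioxidant core stood once in the Smox window and in 10.2% of all windows. The E-box CACGTG, the letters read by Myc and Max, was in none of these 3 windows and in 6.02% of all. Bases after the start or further upstream were not searched, so a site there would not be seen. The base composition differed too, with 68.0% G and C for Smox, 59.6% for Sat1 and 80.0% for Odc1, against a median of 52.4%.

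As facts of the whole series, the median signal per array ran between 88.2 and 127.7, and the 3'/5' signal ratios were 0.81 to 0.91 for Gapdh and 1.1 to 1.2 for actin, highest in tamoxifen overload replicate 2. A level of 54.2 signal units, from olfactory, vomeronasal and taste receptor genes, was taken as background, and each of the 7 leading probe sets lay above it on every array. Pax7 read 57.9, 9.97 and 120 on tamoxifen overload replicates 1, 2 and 3, 41.2 on tamoxifen sham, 274 and 349 on vehicle overload and 92.8 on vehicle sham. It was thus lower with tamoxifen than with vehicle after either operation, and below background on tamoxifen overload replicate 2 and on tamoxifen sham. In bulk muscle fewer cells of a type and less RNA per cell cannot be told apart.

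The main comparison set the 5 overload arrays against the 2 sham arrays, averaged over treatments and adjusted for sex. Of the 7 genes, Srm and Sat1 rose, Smox fell, and Odc1, Oaz1, Oaz2 and Azin1 did not pass the test with their leading probe sets. A gene counts as risen or fallen at an adjusted p under 0.05 (limma, two-sided, Benjamini-Hochberg over 18193 genes). Over all genes 22.9% passed, 14.7% as rises and 8.16% as falls, so with 7 genes the 3 calls are not read as a result about the set. The median log2 difference was -0.18 for the 7 genes and 0.07 for all genes. By role, 1 of 2 synthesis genes rose, 0 of 3 antizyme genes passed in either direction, and the 2 catabolic genes moved opposite ways.

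**Figure D1:**
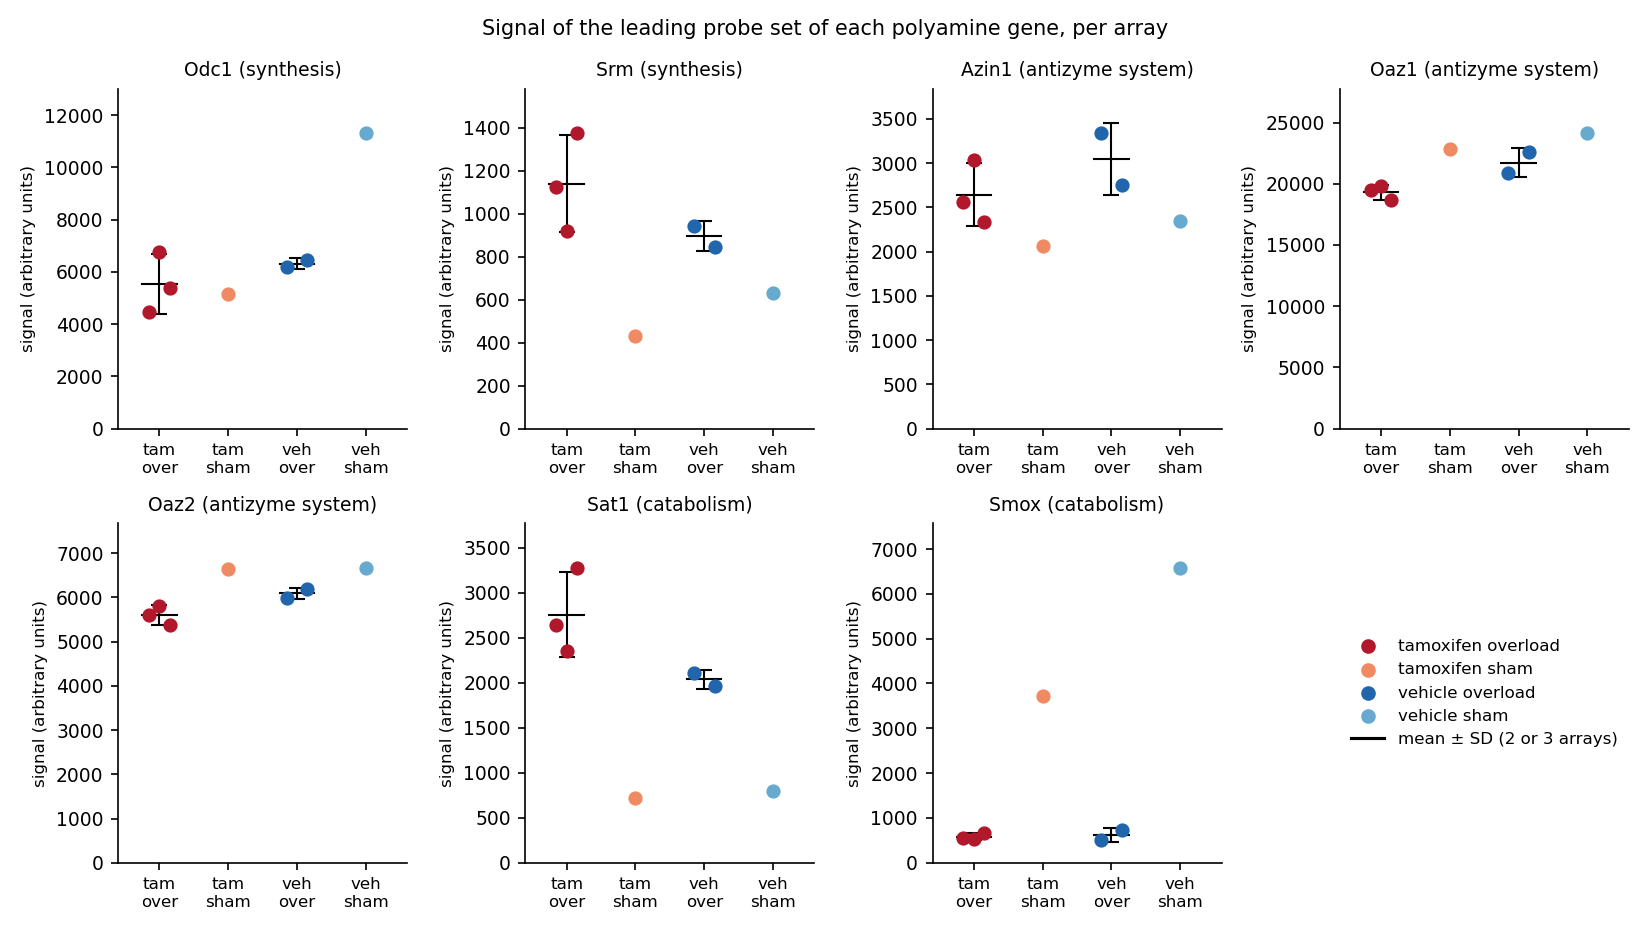
Signal (linear axis from 0, arbitrary units) of the leading probe set of 7 polyamine genes on each array; points are arrays, and lines with bars are the mean ± SD of groups with 2 or 3 arrays (tam, tamoxifen; veh, vehicle; over, overload). Smox lies between 517 and 732 on the 5 overload arrays, against 3718 and 6587 on the sham arrays, while Sat1 lies between 1967 and 3281 against 722 and 801.

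Smox encodes spermine oxidase, which turns spermine into spermidine and releases hydrogen peroxide. Its signal was 520, 669 and 551 on tamoxifen overload replicates 1, 2 and 3 and 517 and 732 on the vehicle overload arrays, against 3718 on tamoxifen sham and 6587 on vehicle sham. Both sham arrays thus stood far above every overload array, and the overload arrays of the 2 treatments overlapped. The log2 difference was -2.94 ± 0.17 (SE; 95% interval -3.34 to -2.54), that is 7.68-fold lower in overload (limma, adjusted p = 7.83e-05). With the mean of its 2 probe sets the value was -2.14 and still passed. In order of size it was the fall at place 18 among 18193 genes. Its fall was known when the set was chosen, so its size is a description.

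The other Smox probe set is dim. It read 63.9, 82.5 and 72.7 with tamoxifen overload and 103 and 45.7 with vehicle overload, against 106 with tamoxifen sham and 229 with vehicle sham. The groups did not overlap, but vehicle overload replicate 2 was below background and tamoxifen sham stood only slightly above the highest overload array. When every probe set was tested it fell by 1.34 on the log2 scale (SE 0.39, limma adjusted p = 0.0497). Of 34945 probe sets 19.5% passed in that test and 6.93% fell.

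Sat1 encodes spermidine/spermine acetyltransferase, the first and rate-limiting step by which spermidine and spermine are broken down or exported. It read 2354, 3281 and 2637 on tamoxifen overload replicates 1, 2 and 3 and 2114 and 1967 on vehicle overload, against 722 on tamoxifen sham and 801 on vehicle sham. Every overload array lay above both sham arrays. The log2 difference was 1.63 ± 0.17 (SE; 95% interval 1.23 to 2.03), or 3.1-fold higher in overload (limma, adjusted p = 0.000733). One probe set represents the gene, so no other probe set can be set beside it.

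Markers of cell types were counted in the same comparison, in which 14.7% of all genes rose and 8.16% fell. All 12 macrophage markers rose, and their summed signal was 25496 to 43008 on the overload arrays, against 5788 and 10391 on the sham arrays. Among the 10 markers of fibroblasts and fibro-adipogenic progenitors, 9 rose, with sums of 105577 to 133368 in overload, against 37340 and 47793 in sham. Of 12 mature myofibre markers 1 fell and 0 rose, with sums of 309134 to 392680 in overload, against 446500 and 472939 in sham. Of 8 satellite cell markers 3 rose. Their sums were 3671 to 4008 with tamoxifen overload and 4767 to 5148 with vehicle overload, against 2027 on tamoxifen sham and 2647 on vehicle sham. Of 4 adipocyte markers 3 fell, while their sums overlapped, at 9702 to 16084 in overload, against 13468 and 15835 in sham. Among 6 endothelial markers 1 rose and 1 fell, with sums of 4423 to 7051 in overload, against 4569 and 5450 in sham. Every marker of these 6 lists was above background on at least 1 array. Their part in the rise of Sat1 and the fall of Smox was not tested.

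Srm encodes spermidine synthase, which makes spermidine from putrescine. Its signal was 920, 1374 and 1126 on tamoxifen overload replicates 1, 2 and 3 and 944 and 847 on vehicle overload, against 430 on tamoxifen sham and 630 on vehicle sham. The groups did not overlap. The log2 difference was 0.92 ± 0.20 (SE; 95% interval 0.46 to 1.37), or 1.89-fold higher in overload (limma, adjusted p = 0.0134). Without vehicle overload replicate 2 it was 0.98 and no longer passed (adjusted p = 0.0596). All 5 measured markers of proliferating cells rose, where 14.7% of all genes rose. The sums of these markers were 1307 to 3283 in overload, against 67.8 and 160 in sham. Their part in the rise of Srm was not tested.

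Odc1 encodes ornithine decarboxylase, the entry into polyamine synthesis. The leading probe set read 6766, 5379 and 4475 on tamoxifen overload replicates 1, 2 and 3, 5163 on tamoxifen sham, 6169 and 6463 on vehicle overload and 11304 on vehicle sham. The vehicle sham array was the only one apart, and tamoxifen sham lay inside the range of the overload arrays. The difference between overload and sham was -0.27 ± 0.16 on the log2 scale (95% interval -0.64 to 0.11) and did not pass (limma, adjusted p = 0.303). A second probe set, marked by its suffix _x_at as open to cross-hybridisation, read 4221 to 7500 in overload, against 4978 on tamoxifen sham and 9863 on vehicle sham. The last one read 491 to 720 in overload, against 580 on tamoxifen sham and 1039 on vehicle sham. Their log2 differences were -0.08 ± 0.17 and -0.22 ± 0.18, so all 3 probe sets gave small values with the same high vehicle sham array.

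Azin1 encodes the antizyme inhibitor, a relative of ornithine decarboxylase that binds antizymes. Its leading probe set read 3036, 2334 and 2561 on tamoxifen overload replicates 1, 2 and 3 and 3336 and 2755 on vehicle overload, against 2059 on tamoxifen sham and 2342 on vehicle sham. The lowest overload array lay just below the higher sham array. The log2 difference was 0.33 ± 0.16 (95% interval -0.05 to 0.71) and did not pass (limma, adjusted p = 0.207). The other 2 probe sets separated the groups, with 1700 to 2564 in overload against 1226 (tamoxifen) and 1224 (vehicle) in sham for the first. The other one read 470 to 643 in overload, against 322 and 280. With every probe set tested they rose by 0.66 ± 0.17 and 0.79 ± 0.16 on the log2 scale (limma, adjusted p = 0.0275 and 0.0129; 12.6% of all probe sets rose). With the mean of the 3 probe sets Azin1 passed (0.59, adjusted p = 0.0303), so its call depends on which probe set stands for it.

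Oaz1 and Oaz2 encode antizymes, whose translation in mammals needs a frameshift that polyamines promote, so mRNA level is only part of their control. Oaz1 read 19796, 18642 and 19511 on tamoxifen overload replicates 1, 2 and 3 and 20870 and 22560 on vehicle overload, against 22864 on tamoxifen sham and 24128 on vehicle sham. Oaz2 read 5372 to 5812 with tamoxifen overload and 5998 and 6186 with vehicle overload, against 6653 on tamoxifen sham and 6677 on vehicle sham. In both genes every overload array was below both sham arrays, but by little. The log2 differences were -0.18 ± 0.16 for Oaz1 and -0.18 ± 0.13 for Oaz2 (limma, adjusted p = 0.467 and 0.378). After quantile normalization Oaz1 stood at 0.07, and with the mean of its probe sets Oaz2 stood at 0.13, so neither sign is settled. In all, the arrays of the groups did not overlap for 5 of the 7 genes, against 41.4% of all genes. Of the 5, Srm and Sat1 lay above sham and Oaz1, Oaz2 and Smox below it, against 23.1% and 18.3% of all genes. The other Oaz2 probe sets stood at -0.04 ± 0.15 and 0.62 ± 0.34, neither past the test, the last of them dim.

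**Figure D2:**
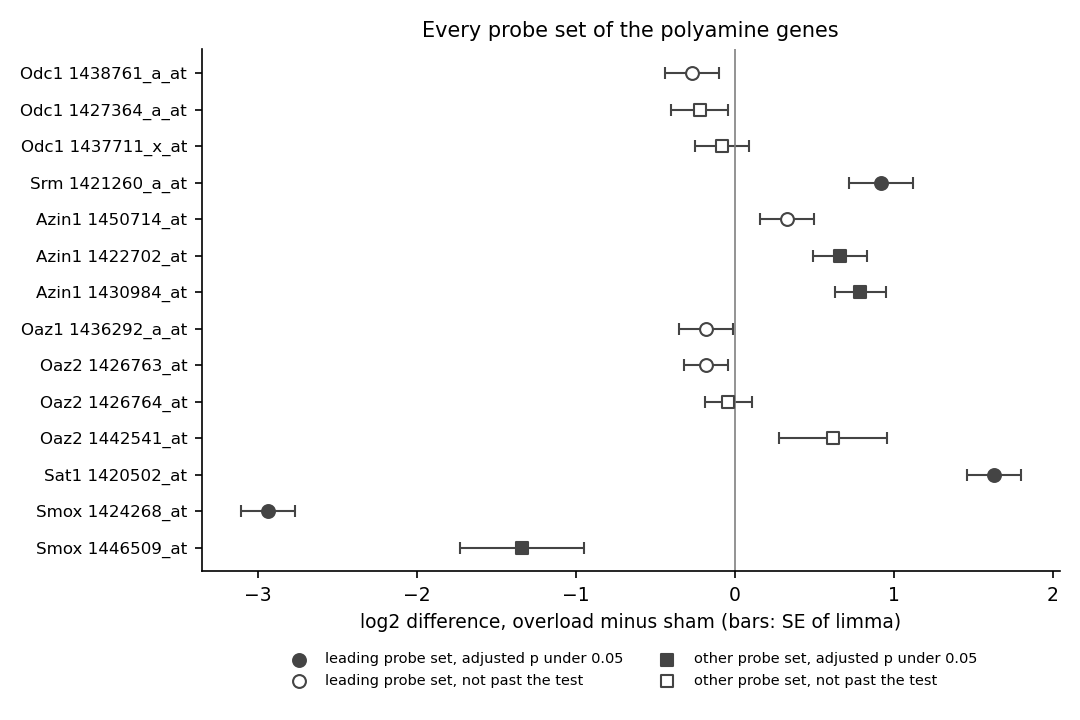
Log2 difference, overload minus sham, of all 14 probe sets of the 7 genes, with bars for the SE of limma; circles are leading probe sets, squares the others, and filled symbols passed at an adjusted p under 0.05. The 2 Smox probe sets lie left of 0 at -2.94 and -1.34, and the 3 Azin1 probe sets lie right of it at 0.33 to 0.79, the leading one closest to 0.

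Overload was also compared with sham within each treatment, each time against a single sham array assumed to vary like the others. With tamoxifen Srm and Sat1 rose and Smox fell (3 of 7 genes), where 14.9% of all genes passed, 9.98% as rises and 4.9% as falls. With vehicle Sat1 rose and Smox fell (2 of 7), where 8.79% passed, 6.35% as rises and 2.44% as falls. Smox stood at -2.60 ± 0.23 with tamoxifen and -3.28 ± 0.25 with vehicle (log2, SE; limma adjusted p = 0.000881 and 0.000543). Sat1 stood at 1.92 ± 0.22 and 1.35 ± 0.24 (adjusted p = 0.00233 and 0.0159). Without vehicle overload replicate 2 the Sat1 value with vehicle was 1.47 and did not pass (adjusted p = 0.105). Srm stood at 1.36 ± 0.26 with tamoxifen and 0.47 ± 0.28 with vehicle (adjusted p = 0.0118 and 0.359). With neither sex term nor intensity trend the Srm value with tamoxifen was 1.39 and did not pass (adjusted p = 0.0709).

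Odc1 had opposite signs in the 2 treatments, 0.17 ± 0.21 with tamoxifen and -0.70 ± 0.23 with vehicle, and passed in neither (limma, adjusted p = 0.65 and 0.11). Without tamoxifen overload replicate 1 the value with vehicle was -0.76 and passed (adjusted p = 0.0236). Azin1 stood at 0.32 ± 0.21 and 0.33 ± 0.23, Oaz1 at -0.23 ± 0.20 and -0.14 ± 0.22, and Oaz2 at -0.24 ± 0.17 and -0.12 ± 0.19, in the order tamoxifen and vehicle. Of the 7 probe sets that do not lead their gene, 1 passed within vehicle and 0 within tamoxifen, where 6.96% and 12.4% of all probe sets passed. The 1 was the Azin1 probe set of lowest signal, at 1.00 ± 0.23 with vehicle (limma, adjusted p = 0.0412) and 0.58 ± 0.21 with tamoxifen (adjusted p = 0.115).

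Whether the response to overload differed between treatments was tested as an interaction, tamoxifen minus vehicle. It called 0 of the 7 genes and 0 of all 18193 (0%) in limma, while 2 of the 7 and 1021 of all genes had an unadjusted p under 0.05; the ordinary linear model also called 0. Without tamoxifen overload replicate 1 limma called 12 of all genes, and without vehicle overload replicate 2 limma called 1, with 0 of the 7 in either case. The 2 were Odc1, at 0.88 ± 0.30 (95% interval 0.18 to 1.57; unadjusted p = 0.0195, adjusted p = 0.782), and Srm, at 0.89 ± 0.36 (0.06 to 1.73; unadjusted p = 0.0384, adjusted p = 0.842). Smox stood at 0.69 ± 0.32 and Sat1 at 0.57 ± 0.32, with 95% intervals of -0.05 to 1.42 and -0.16 to 1.30. These intervals leave room for differences of over 1 on the log2 scale.

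**Figure D3:**
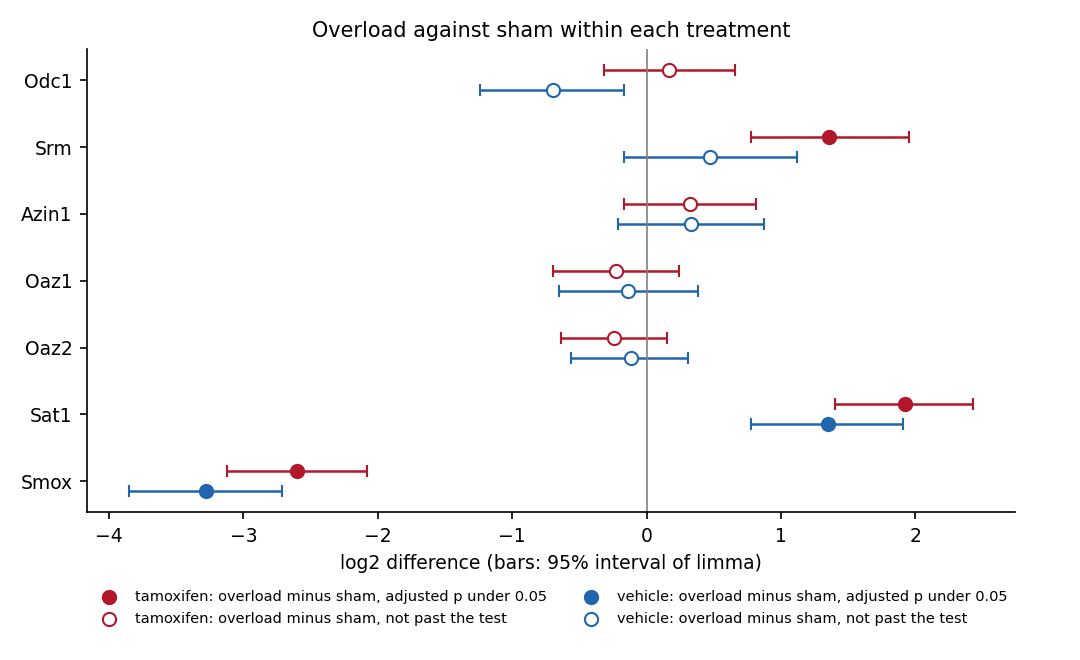
Log2 difference, overload minus sham, within tamoxifen (red) and within vehicle (blue) for 7 genes, with 95% intervals of limma; filled points passed at an adjusted p under 0.05. Smox lies left of 0 in both treatments (-2.60 and -3.28), Sat1 right of it in both (1.92 and 1.35), and Odc1 falls on either side (0.17 and -0.70).

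The sham arrays, 1 for each treatment, were compared without a test. Odc1 was 2.19-fold lower on tamoxifen sham than on vehicle sham with the leading probe set, and 1.79-fold and 1.98-fold lower with the other 2. Smox was 1.77-fold lower and Srm 1.47-fold lower on tamoxifen sham, while Sat1, Azin1, Oaz1 and Oaz2 differed by 1.14-fold or less. The interaction values of Odc1, Smox and Srm contain this difference between single arrays.

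Within overloaded muscle, 3 tamoxifen arrays were set against 2 vehicle arrays. None of the 7 genes passed, and 0 of 18193 genes (0%) did in limma or in the ordinary linear model; 1 of the 7 and 1932 of all genes had an unadjusted p under 0.05. Without tamoxifen overload replicate 1, 227 genes passed and again 0 of the 7. The gene with the unadjusted p was Sat1, at 2757 ± 475 (SD, n = 3) with tamoxifen and 2040 ± 104 (SD, n = 2) with vehicle, without overlap. Its log2 difference was 0.42 ± 0.17 (95% interval 0.02 to 0.82; limma adjusted p = 0.46). The summed macrophage signal was 30651 to 43008 with tamoxifen overload, against 25496 and 29115 with vehicle overload, and its part in the Sat1 value was not tested. Oaz1 and Oaz2 were lower on all 3 tamoxifen arrays than on both vehicle arrays, by -0.17 ± 0.16 and -0.12 ± 0.13. Arrays of the groups did not overlap for 3 of the 7 genes, against 29.5% of all genes. Smox was 580 ± 78.6 with tamoxifen and 624 ± 152 with vehicle, a difference of -0.14 ± 0.17 (95% interval -0.54 to 0.26). Odc1, Srm and Azin1 stood at -0.26 ± 0.16, 0.34 ± 0.20 and -0.19 ± 0.16.

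Sat1 lies on the X chromosome and the groups hold both sexes unequally, so female against male was read from the same fit. With leading probe sets none of the 7 genes passed in limma and none had an unadjusted p under 0.05. Of all 18193 genes 9 passed (0.0495%). Sat1 stood at 0.00 ± 0.17 (female minus male, 95% interval -0.40 to 0.40), and the leading value furthest from 0 was that of Odc1, at -0.28 ± 0.16. The _x_at probe set of Odc1 stood further off at -0.52 ± 0.17 and the dim Smox probe set at 0.49 ± 0.39. Neither passed with every probe set tested (limma, adjusted p = 0.937 and 0.955).

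The genes around the pathway were counted by their role. For the supply of ornithine and arginine, 1 of 9 genes rose and 1 fell in overload, where 14.7% of all genes rose and 8.16% fell. Aldh18a1, which makes the precursor of proline and ornithine from glutamate, read 739 to 1864 in overload, against 296 (tamoxifen) and 304 (vehicle) in sham, a rise of 1.87 ± 0.23 (limma, adjusted p = 0.00141). Oat, the aminotransferase that interconverts ornithine and the same precursor, read 5875 to 6746 in overload, against 9773 and 11110 in sham, and fell by 0.77 on the log2 scale (SE 0.13, adjusted p = 0.00554), a call lost without vehicle overload replicate 2 (-0.73, adjusted p = 0.107). Of the arginases, which make ornithine from arginine, Arg2 was above background on no array. Arg1 was above it on tamoxifen overload replicate 2 alone, at 253, and did not pass (adjusted p = 0.283); without tamoxifen overload replicate 1 it did (adjusted p = 0.02).

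The next list holds methionine and S-adenosylmethionine genes, which supply and recycle the donor used by spermidine and spermine synthase. Of 11 measured, 4 fell and 0 rose, where 8.16% of all genes fell, with a median of -0.23 against 0.07 for all genes. Without vehicle overload replicate 2, 1 of the 4 passed. Adi1, a dioxygenase of methionine salvage, read 839 to 1320 in overload, against 2857 (tamoxifen) and 4023 (vehicle) in sham, and fell by 1.63 on the log2 scale (SE 0.16, limma adjusted p = 0.000513). Apip and Enoph1, which act just before it in the same salvage pathway, fell by 0.64 and 0.56. Mat2b, a regulatory subunit of methionine adenosyltransferase, fell by 0.59, while Mat2a of the same list was not measured. Mtap, also of this list, went the other way at 0.58 ± 0.20 and did not pass (limma, adjusted p = 0.0713). Without tamoxifen overload replicate 1 Mtap stood at 0.72 and passed as higher. Without vehicle overload replicate 2 the calls of Apip, Enoph1 and Mat2b were lost (adjusted p = 0.0859, 0.178 and 0.201). Enoph1 also lost it without vehicle overload replicate 1 (adjusted p = 0.055) or tamoxifen overload replicate 3 (adjusted p = 0.0552), and with the mean of its probe sets (-0.35).

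Spermidine is the donor for hypusine, a modified lysine of the translation factor eIF5A. Of the 4 genes of this step, Eif5a2 rose by 1.06 ± 0.31 and Dhps, deoxyhypusine synthase, fell by 0.57 on the log2 scale (SE 0.15; limma, adjusted p = 0.0441 and 0.0289). Over all genes 14.7% rose and 8.16% fell. Of 17 alternatives Eif5a2 did not pass in 12, which include leaving out any 1 overload array (adjusted p = 0.0514 to 0.131). Dhps did not pass in 8, which include leaving out vehicle overload replicate 1, vehicle overload replicate 2 or tamoxifen overload replicate 3 (adjusted p = 0.056, 0.161 and 0.0546). Eif5a itself stood at 0.28 ± 0.15 and the hydroxylase Dohh at -0.37 ± 0.21. After quantile normalization Eif5a passed (0.54, limma adjusted p = 0.0271), while after median centring it stood at -0.01.

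Of 8 measured polyamine transport genes 0 passed in limma, where 22.9% of all genes passed. The transporter gene Atp13a3 read 1414 to 1879 in overload, against 1245 and 1141 in sham, a difference of 0.45 ± 0.17 (adjusted p = 0.0908). It passed without tamoxifen overload replicate 1 (0.53, adjusted p = 0.0399) and with the mean of its probe sets (1.68, adjusted p = 0.00744). Slc18b1, another transporter gene, stood at 0.35 ± 0.19. Slc12a8 and Atp13a4 were above background on no array. Of 3 other enzymes and regulators 0 passed; Sat2 stood at 0.42 ± 0.18, and Oaz3 and Aoc1 were above background on no array.

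Among 5 genes known as regulators of Odc1 or Smox in other settings, 2 rose, where 14.7% of all genes rose. With 5 genes this is not read as a result about the list. Mycn, a Myc family factor, had 93.2 to 167 in overload, against 14.5 (tamoxifen, below background) and 63.6 (vehicle) in sham. It passed as higher (limma, adjusted p = 0.00788), but the size is not measured, and within vehicle the value was 0.96 ± 0.50 (adjusted p = 0.295). With the mean of its probe sets it did not pass (0.86, adjusted p = 0.2). Max, the partner of Myc proteins, rose by 0.84 ± 0.18 (adjusted p = 0.0145), and both lost their call without vehicle overload replicate 2 (adjusted p = 0.0697 for Mycn and 0.109 for Max). Max also lost it after quantile normalization (0.65, adjusted p = 0.0501) and median centring (0.55, adjusted p = 0.0651). Myc read 212 to 454 in overload, against 126 and 149 in sham, a difference of 0.98 ± 0.31 that did not pass (adjusted p = 0.0567) but did without tamoxifen overload replicate 1 (1.17, adjusted p = 0.00814) or without the sex term (1.27, adjusted p = 0.0277). Esr1, the oestrogen receptor, stood at -0.31 ± 0.18. The part of these factors in the values of Odc1, Smox or the other polyamine genes was not tested.

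**Figure D4:**
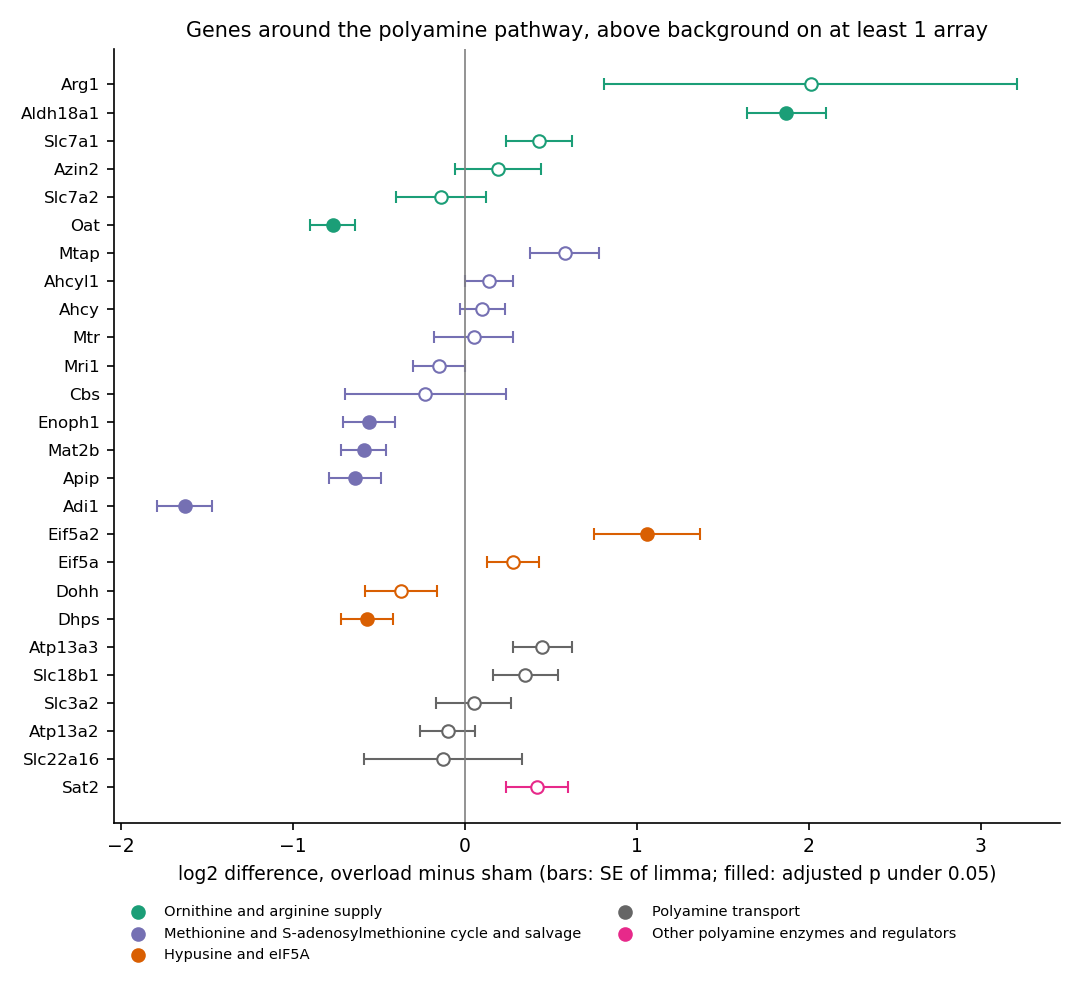
Log2 difference, overload minus sham, of genes around the pathway that were above background on at least 1 array, with bars for the SE of limma; colours are the lists and filled points passed at an adjusted p under 0.05. Adi1 (-1.63) lies furthest left among the filled points, and Aldh18a1 (1.87) furthest right. The regulators are not plotted.

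For the 3 genes that passed, the most alike profiles over the 7 arrays were sought among 12492 genes with a mean level above background. The measure was the root mean square difference of log2 levels after subtracting each gene's mean. Closest to Smox were Nmrk2 (0.26), a nicotinamide riboside kinase of muscle, Pfkfb3 (0.30) and Neto2 (0.36). Pfkfb3 makes a fructose bisphosphate that activates glycolysis and is not one of its intermediates. Nmrk2 read 580 to 963 in overload, against 4683 on tamoxifen sham and 6951 on vehicle sham. Closest to Sat1 were L3hypdh (a dehydratase of hydroxyproline), Tmed3 (a secretory cargo protein) and Slc30a7 (a zinc transporter), each at 0.10. Tmed3 read 2386 to 4319 in overload, against 995 on tamoxifen sham and 1043 on vehicle sham. Closest to Srm were Hsd17b12 (an enzyme of fatty acid elongation), 5031434O11Rik and Neil3 (a DNA glycosylase), also each at 0.10. Of these, 5031434O11Rik and Neil3 did not pass for overload against sham (limma, adjusted p = 0.0947 and 0.149). 5031434O11Rik was dim, at 43.9 on tamoxifen sham, below background, and Neil3 read 65 there. This measure favours genes that differ as strongly as the gene itself, and no test was made of it.

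The calls rest on how the spread was estimated. Without the trend of variance with intensity Smox, Sat1 and Srm kept their values for overload against sham and had adjusted p = 0.0574, 0.0645 and 0.129, and with an ordinary linear model 0.172, 0.181 and 0.257. Under both settings 0 of all 18193 genes passed in this comparison. With the sex term and the trend both left out, these 3 genes passed again, among 2877 of all genes.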

How the data were processed

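The authors' deposited table gives 45101 probe sets of the Affymetrix Mouse 430 2.0 array as intensity values on a linear scale; the submitters' processing notes name Partek without version or role. The sources used here do not state how probes were summarised. On each array the mean without the lowest and highest 2% of probe sets is 500.0, so each array was scaled as a whole, which cannot show a change in total RNA. Every value was taken as log2(signal + 1). Left out were 64 controls, 9160 probe sets with no symbol and 932 with more than one. The other 34945 (34741 matched by Entrez identifier, 0 symbols changed) gave 18193 genes, each represented by its probe set of highest mean. Background is the 95th percentile of the mean levels of 76 chemosensory receptor genes.

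A linear model with terms for the 4 groups and for sex was fitted to all 7 arrays with limma 3.58.1 (R 4.3.3), with variances moderated along intensity (2 residual and 5.95 prior degrees of freedom). SE is its moderated standard error. The sham groups have no replicates and take their spread from the overload arrays. The procedure was tested on simulated data with known changes. Sham and overload arrays were simulated with the same spread, so the test cannot check that assumption. The genes and lists were chosen with earlier results of these data known. Named were all 7 genes, up to 4 per list by size (called ones first), Mtap and Mat2a beside them, and the 3 most alike genes per called gene. Alternatives covered the sex term, model, scaling, pseudocount, probe set, filter, variance estimate and each array left out. Promoter sequences are from RefSeq. Plots used matplotlib 3.10.9 under Python 3.11.15.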

Additional observations from a re-analysis of the deposited data

How the results depend on the processing

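Over 20 alternatives, 728 values of the 7 genes were recomputed. In 675 the direction and the side of the threshold stayed as reported, in 20 a call was lost, in 2 one was gained, in 0 did a called value change sign, and in 31 the sign differed with neither value called. Leaving out either female array lets the sex term fit the other exactly. Apart from female against male, both fits then give the log2 differences of male arrays alone, so these alternatives are not separate checks. For overload against sham 3 of the 7 genes passed as reported, 0 without the intensity trend and 0 with an ordinary linear model, and 2 to 3 with an array left out. Over all genes 4163 passed, 0 under each of those 2 settings, and 1924 to 4695 with an array left out, so every call was lost with them and not those of the polyamine genes alone. With neither sex term nor intensity trend 3 of the 7 and 2877 of all genes passed. Within tamoxifen 3 passed, 0 without the intensity trend, 0 with an ordinary linear model, and 2 with neither sex term nor intensity trend. Within vehicle 2 passed, 0 under each of the same 2 settings, 1 with neither of those terms, and 1 to 3 with an array left out (1 without vehicle overload replicate 2, 3 without tamoxifen overload replicate 1). The cause was not tested. Leaving out a sham array gives no value for the comparisons that use it. Without the other treatment's sham array, 2 passed within vehicle and 3 within tamoxifen. Median centring of the arrays shifted the all-gene median by -0.29 for overload against sham; Smox, Sat1 and Srm then stood at -3.23, 1.34 and 0.63 and passed, and Azin1 at 0.04. Over all alternatives Smox ranged from -3.23 to -2.14, Sat1 from 1.34 to 1.74 and Srm from 0.63 to 1.05. The sham difference of Odc1 ranged from -1.30 to -0.99 over 4 alternatives chosen after seeing the data, as were those for the genes around the pathway. No paired analysis was possible because the labels pair no arrays across groups. Without replicates in the sham groups, every comparison with sham rests on the spread of the overload arrays.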
